A study of Mus musculus with 8 samples.

Results

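The 9 genes described here make, carry or sense retinoic acid, and were taken by symbol from a table of 16119 mouse genes. ALDH1A1, ALDH1A2 and ALDH1A3 encode the retinaldehyde dehydrogenases, which oxidise retinaldehyde to retinoic acid. RARA, RARB and RARG encode the nuclear retinoic acid receptors. RBP4 is the plasma carrier of retinol, STRA6 its membrane receptor, and CRABP2 a cytosolic protein that hands retinoic acid to the receptors. All 9 genes were listed in the table, and 8 of them passed the filter on low values. CRABP2 did not.

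Retinoic acid is formed inside cells in 2 oxidation steps, from retinol to retinaldehyde and from retinaldehyde to the acid, and is broken down by enzymes of the CYP26 family. It binds receptors that sit on DNA as pairs with a retinoid X receptor and change transcription of nearby genes. Retinoic acid is best known for patterning the embryo, including the foregut from which thyroid and lung both arise, and for maintaining adult epithelia.

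RNA was sequenced from 8 libraries, 2 in each of 4 groups. Thyroid follicular cell organoids (TFCOs) are cultures grown in basement membrane extract from the follicular cells of adult thyroid, and an early and a late passage of each of the lines mThy14 and mThy16 were sequenced. The other groups were thyroid tissue and lung tissue, the latter an unrelated control. All samples came from C57BL/6 mice labelled wild type, with no treatment, and their ages were not given in the sources used here. Organoids came from surplus material of female mice, and the cells of 1 thyroid were plated together, so each line stands for 1 gland. The expansion medium held R-spondin 3, A83-01, forskolin, EGF, FGF10 and the B27 supplement, and whether it supplied vitamin A was not stated. Early and late libraries of a line are the same culture, so 2 lines were compared with 2 tissues.

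Between 9755081 and 16904865 reads per library were recovered from the values. The libraries were placed in 2 sets that cut across the groups. The first held the 4 TFCOs and thyroid tissue 1, the other thyroid tissue 2 and both lungs. In the first set, 44 genes stood at 50 or more normalized counts and at 0 throughout the other, and 16 genes showed the reverse, with 0 of the 9 retinoic acid genes among them. A comparison within a set was thus possible for TFCOs with thyroid tissue 1 and for thyroid tissue 2 with lung. Each has 1 thyroid library, so only the difference is given for it. In comparisons of TFCOs with lung, tissue and set cannot be told apart. Markers of other cells differed between the groups too. The summed level of 6 fibroblast markers ranged from 91.6 to 247.4 normalized counts in TFCOs and was 29602 and 25237 in the thyroid tissues, and that of 5 parathyroid and C cell markers ranged from 21.8 to 102.6 in TFCOs and was 49706 and 91896. Of the follicular markers, PAX8 and TG were detected in every TFCO and thyroid library. TG was 58.3-fold lower in TFCOs than in thyroid tissue (log2 difference -5.87, standard error 1.31, adjusted p = 0.0620), with 9532 to 126441 normalized counts in TFCOs, and SLC5A5, the iodide transporter, was 16.9-fold lower (-4.08, adjusted p = 0.105). PAX8 and FOXE1 differed by -0.28 and -0.99 on the log2 scale, and NKX2-1 and TSHR by 0.23 and 1.74, none of them called. In bulk RNA, fewer cells of a type and less RNA per cell cannot be told apart.

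Values are normalized counts, which are reads per gene divided by a size factor of the library, and 2 values given for a tissue follow the order tissue 1, tissue 2. Differences were tested with limma on log2(normalized counts + 1) across 14703 genes, with Benjamini-Hochberg adjustment over all of them and a threshold of 0.05, and a gene past it is said to be called. Log2 differences on this scale understate the change of low genes. With 2 samples on each side, the smallest two-sided p of an exact permutation test is 0.333, and none was run.

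**Figure D1:**
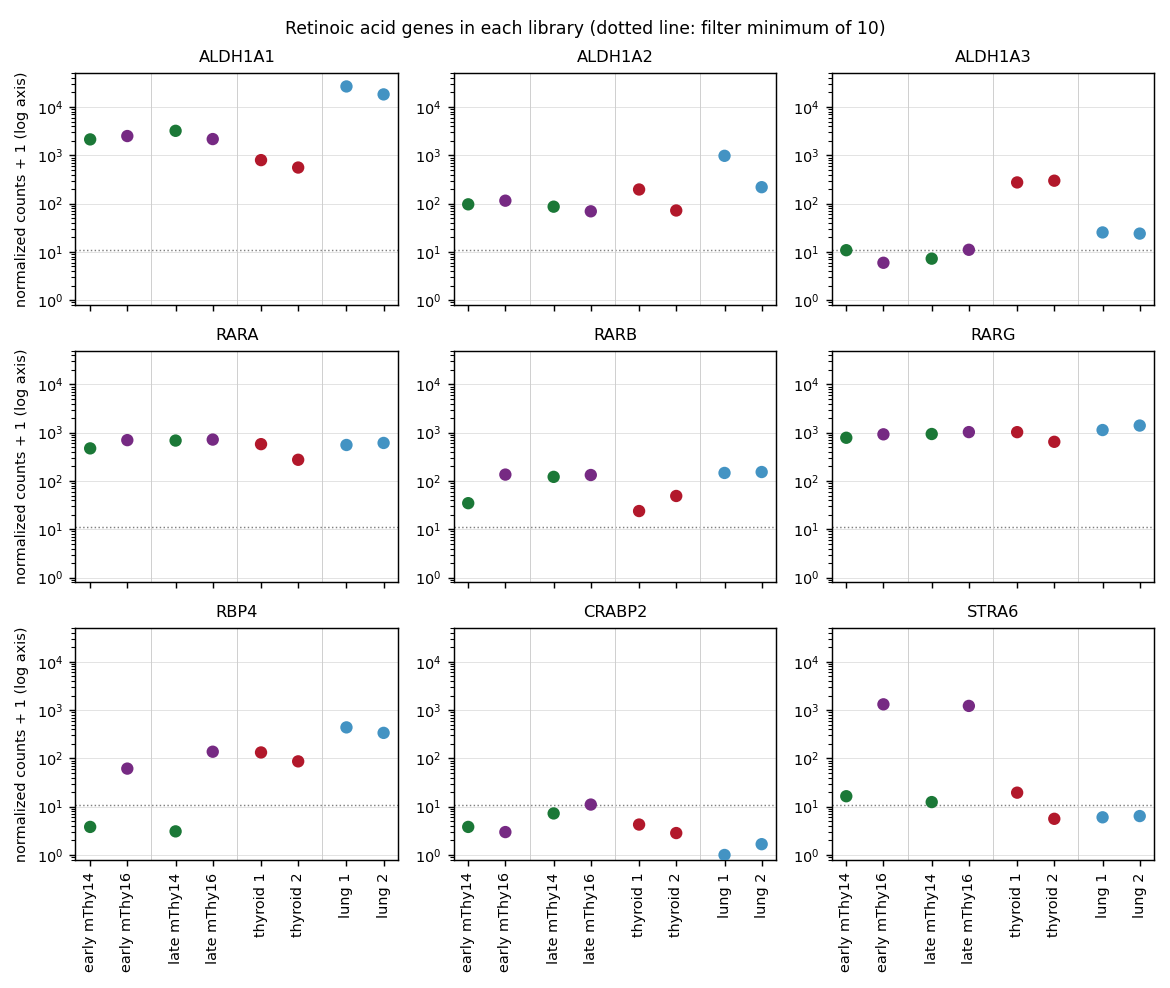
Normalized counts plus 1 (log axis) of the 9 genes in each of the 8 libraries, 1 point per library, with TFCO lines mThy14 in green and mThy16 in purple, thyroid tissue in red and lung tissue in blue. ALDH1A3 stands at 273 and 297 in thyroid tissue and at 4.95 to 10.1 in TFCOs, and STRA6 and RBP4 separate the lines rather than the passages.

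The clearest difference between TFCOs and thyroid tissue lay in ALDH1A3. It stood at 9.84 and 6.25 in early and late mThy14, 4.95 and 10.1 in early and late mThy16, 273 and 297 in thyroid, and 24.3 and 22.9 in lung. All 4 TFCO libraries lay below both lungs, which in turn lay more than 10-fold below both thyroid tissues. ALDH1A3 fell by 5.08 on the log2 scale from thyroid tissue to TFCOs (standard error 0.75, adjusted p = 0.0167), a level 33.7-fold lower. Against thyroid tissue 1 alone, within the set, the difference was -5.02. The call was lost when lung tissue 1 or lung tissue 2 was left out of the fit, although the difference stayed at -5.08. The lungs enter this comparison only through the estimate of the spread, which all groups share. ALDH1A3 was the sole called gene of the 8 tested, 1 lower and 0 higher, beside 3.05% of all genes called lower and 0.599% called higher.

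ALDH1A3 also stood 3.54 on the log2 scale higher in thyroid than in lung tissue (standard error 0.75, adjusted p = 0.0412), and 3.60 higher when thyroid tissue 2 was set against the lungs within their set. The call was lost without either lung (adjusted p = 0.303 and 0.326), without early mThy14 (0.0537) and without the filter (0.0555). In GENCODE M21 (GRCm38) the gene spans chromosome 7 from 66390890 to 66427517, on the minus strand, and its transcript shared no 50-base stretch with another gene. Markers of other cells also differed between TFCOs and thyroid tissue. Of the parathyroid and C cell markers, 3 of 5 were called lower in TFCOs (PTH, CALCA and CHGA) and 0 higher, and PTH, the defining parathyroid gene, was at 0 in all 4 TFCO libraries. All 6 fibroblast markers, 4 of 5 skeletal muscle, 3 of 5 endothelial, 2 of 6 adipocyte and 1 of 5 leukocyte markers were called lower as well. Of 6 lung epithelial markers, 1 was called higher in TFCOs (SFTPB, log2 difference 7.18) and 0 lower, beside 0.599% of all genes called higher. SFTPB stood at 1474.9 to 28176.5 normalized counts in TFCOs and at 25.0 and 28.6 in thyroid tissue. Of the 6 follicular markers, given above, 4 were lower in TFCOs and 2 higher, and 0 were called. Between thyroid tissue and lung, 4 of 5 parathyroid and C cell, 5 of 5 skeletal muscle and 5 of 6 follicular markers were called higher in thyroid. Fibroblast, endothelial and leukocyte markers had 0 called higher there and 1 of each called lower, beside 2.89% and 3.16% of all genes. The part of these cells in the result was not tested.

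ALDH1A1 ran the other way. It counted 2132 early and 3210 late in mThy14, 2502 early and 2166 late in mThy16, 794 and 557 in thyroid, and 26634 and 18223 in lung. The groups did not overlap, with lung highest and thyroid tissue lowest. Thyroid tissue was 33.1-fold lower than lung (log2 difference -5.05, standard error 0.39, adjusted p = 0.00225), and thyroid tissue 2 alone lay -5.30 from the lungs of its set. TFCOs were 8.92-fold lower than lung (log2 difference -3.16, standard error 0.39, adjusted p = 0.00396), a call that was lost without lung tissue 1 (-2.88, adjusted p = 0.0550).

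Against thyroid tissue, ALDH1A1 in TFCOs had a log2 difference of 1.89 (standard error 0.39), a 3.71-fold higher mean that missed the threshold (adjusted p = 0.0511). Against thyroid tissue 1 alone it was 1.64. The difference was positive under all 16 alternatives tried, from 1.64 to 2.15, and passed the threshold under 5 of them. ALDH1A1 lies on chromosome 19 from 20492715 to 20643465, and 6.54% of the 50-base stretches of its longest transcript also occur in Aldh1a7, a close paralog not analysed here, so that some reads may belong to either gene.

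ALDH1A2, the enzyme of the early embryo and of mesothelium, was low in TFCOs. It stood at 95.6 and 85.3 in early and late mThy14, 114 and 68.2 in early and late mThy16, 195 and 71.0 in thyroid, and 974 and 218 in lung. TFCOs and thyroid tissue overlapped, whereas both lungs lay above every other library. None of its differences passed the threshold: -0.40 between TFCOs and thyroid tissue (standard error 0.83, adjusted p = 0.802), -2.36 between TFCOs and lung (standard error 0.83, adjusted p = 0.0749) and -1.96 between thyroid tissue and lung (standard error 0.83, adjusted p = 0.220). Under quantile normalization the first of these turned to 0.24.

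The lungs differed from each other by 4.47-fold in ALDH1A2. Mesothelial markers, from the cell layer that covers the lung, differed the same way. UPK3B was at 2478 and 522 normalized counts in lung tissues 1 and 2, and MSLN at 3024 and 659. The 5 mesothelial markers summed to 7237 and 1675 in the lungs and to between 62.1 and 147.6 in the other libraries. Adipocyte markers had sums of 5036 and 662 in the lungs, in the same order. The part of these cells in the ALDH1A2 level was not tested. ALDH1A2 lies on chromosome 9 from 71215789 to 71296243 and shared no 50-base stretch with another gene.

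**Figure D2:**
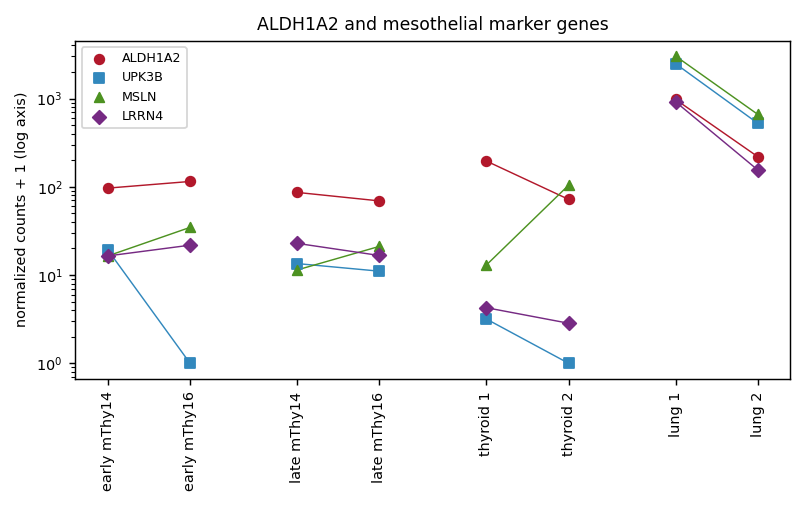
Normalized counts plus 1 (log axis) of ALDH1A2 and of the mesothelial markers UPK3B, MSLN and LRRN4 in each library, with lines joining the libraries of a group. All 4 genes fall from lung tissue 1 to lung tissue 2, ALDH1A2 from 974 to 218, while in TFCOs ALDH1A2 stays between 68.2 and 114 with the 3 markers under 40.

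Levels of different genes were compared per kb of the longest transcript. On this scale ALDH1A1 made up 95.3% to 97.2% of the summed level of the 3 dehydrogenases in TFCOs. Its share was 67.0% and 66.8% in thyroid, and 96.3% and 98.7% in lung. ALDH1A3 took 15.8% and 24.4% of the sum in the thyroid tissues and between 0.129% and 0.307% in TFCOs. In the lungs its share was 0.0601% and 0.0850%. The share of ALDH1A2 was 17.1% and 8.86% in thyroid, 3.67% and 1.23% in lung and 2.69% to 4.52% in TFCOs. All 3 shares set TFCOs apart from thyroid tissue without overlap, and that of ALDH1A3 did not overlap between TFCOs and lung either. Shares of the same sum depend on each other and are not 3 separate results, and the level of ALDH1A2 itself overlapped between TFCOs and thyroid tissue. The shares are descriptions and were not tested, and how often other genes separate the groups was not counted.

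**Figure D3:**
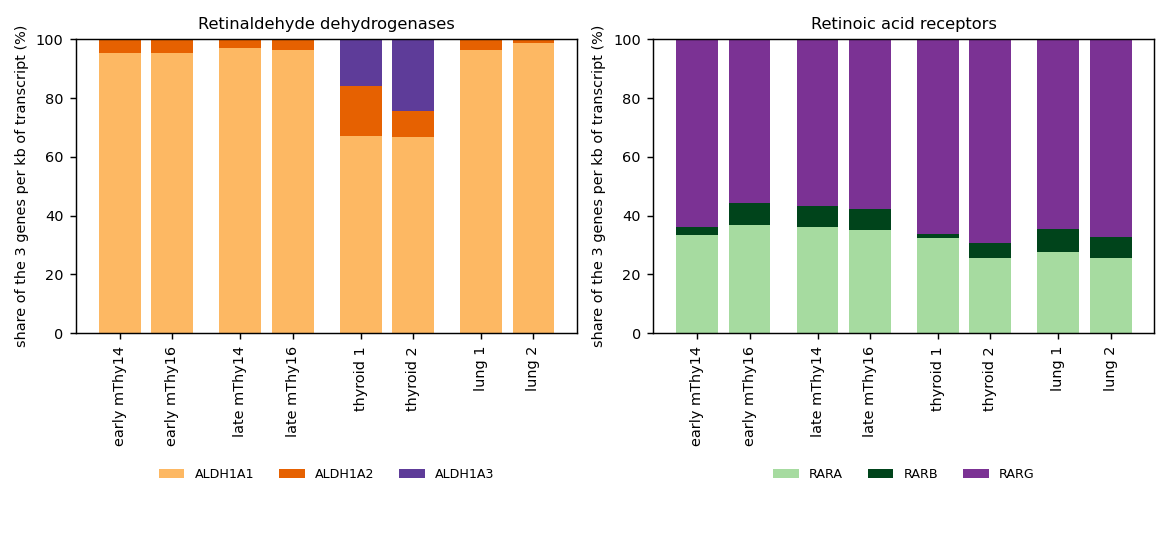
Share (%) of each retinaldehyde dehydrogenase gene (left) and of each retinoic acid receptor gene (right) in the summed level per kb of transcript of its 3 genes, 1 bar per library. ALDH1A3 is visible in the thyroid tissues alone, at 15.8% and 24.4%, whereas RARG takes between 55.6% and 69.4% of the receptor sum in every library and RARB between 1.40% and 7.88%.

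Of the receptors, RARG and RARA were high and RARB low in every library. RARG counted 784 early and 938 late in mThy14, 924 early and 1027 late in mThy16, 1024 and 646 in thyroid, and 1133 and 1404 in lung. TFCOs and thyroid tissue overlapped, and both lungs lay above them. From thyroid tissue to TFCOs its log2 difference was 0.17 (standard error 0.37, adjusted p = 0.810).

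RARA stood at 472 and 686 in early and late mThy14, 700 and 719 in early and late mThy16, 578 and 274 in thyroid, and 555 and 612 in lung. TFCOs overlapped with both tissues, and thyroid tissue 2 was the lowest library. Its differences were 0.67 between TFCOs and thyroid tissue (standard error 0.45, adjusted p = 0.424) and 0.12 between TFCOs and lung (standard error 0.45, adjusted p = 0.844). Per kb, RARG stood above RARA and RARA above RARB in all 8 libraries.

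RARB, the receptor gene best known as itself induced by retinoic acid, was the lowest and the most variable of the 3. It counted 33.7 early and 121 late in mThy14, 135 early and 132 late in mThy16, 22.9 and 47.9 in thyroid, and 146 and 152 in lung. Early mThy14 lay with thyroid tissue, and the other 3 TFCO libraries lay between thyroid tissue and lung. No difference passed the threshold: 1.45 between TFCOs and thyroid tissue (standard error 0.73, adjusted p = 0.336), -0.68 between TFCOs and lung (adjusted p = 0.493) and -2.13 between thyroid tissue and lung (standard error 0.73, adjusted p = 0.142). Without thyroid tissue 2 the last difference was -2.65, but that leaves thyroid tissue 1 alone, which is of the other set. RARB lies on chromosome 14 from 16430839 to 16819156 on the minus strand, and 54.1% of the 50-base stretches of its longest transcript overlap those of Top2b, which had 1707 to 4009 normalized counts. Whether the counting used strand is not given in the sources used here, so reads of the shared stretch could belong to either gene.

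Paired receptors bind direct repeats of a hexamer. Promoter windows of RefSeq (GRCm38.p6), 250 bases before to 50 after a start site, were searched on both strands for 2 hexamers in the same direction with a spacer of 5 bases between them, where a hexamer was AGGTCA (the consensus) or one of its variants AGTTCA (T at its middle), GGGTCA (G at its start) and GGTTCA (both changes). Windows were given for 7 of the 9 genes and 28 of 33 other pathway genes. The repeat was found in 32 of 32817 windows (0.0975%), and among the 9 genes in RARB alone. In the list of other pathway genes it was found in Cyp26a1, the retinoic acid hydroxylase, alone. Both stretches are shown since they carry the repeat through which the receptors are known to act on these genes, with the repeat in capitals, 5′ to 3′ on the strand of the gene, and ending at most at the last base before the start site.
Rarb, chr14:16575483-16575559, minus strand: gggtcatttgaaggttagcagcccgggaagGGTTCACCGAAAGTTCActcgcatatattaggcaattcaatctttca
Cyp26a1, chr19:37697746-37697807, plus strand: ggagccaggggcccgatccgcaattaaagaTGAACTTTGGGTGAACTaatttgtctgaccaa
In Rarb the repeat took positions -53 to -37 from the start site and had the hexamers GGTTCA (first) and AGTTCA (second). In Cyp26a1 it took positions -32 to -16, lay on the opposite strand and had AGTTCA as both hexamers. Spacers of 1 and 2 bases, also bound by these receptors, were found in 0.222% and 0.268% of the windows and in none of those of the 9 genes. A match describes letters in a window and is no measurement of binding. CYP26A1 itself had 3 to 9 reads per TFCO library (2.97 to 10.1 normalized counts), 2.18 and 3.69 normalized counts in the thyroid tissues and 0 in both lungs, where a count of 0 allows up to 2.51 and 2.02 normalized counts.

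The carriers STRA6 and RBP4 differed widely between the organoid lines. STRA6 stood at 15.5 and 11.4 in early and late mThy14, 1314 and 1220 in early and late mThy16, 18.5 and 4.61 in thyroid, and 5.03 and 5.39 in lung. Both mThy16 libraries stood far above all others, and every other library lay below 20. The level in mThy16 was 85.0-fold that in mThy14 at early passage and 107-fold at late passage. As a group, TFCOs had a log2 difference of 3.69 from thyroid tissue with a standard error of 1.97 (adjusted p = 0.353), and mThy14 on its own lay among the tissues. STRA6 lies on chromosome 9 from 58063788 to 58153996.

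RBP4 counted 2.81 early and 2.08 late in mThy14, 60.4 early and 136 late in mThy16, 132 and 85.7 in thyroid, and 437 and 336 in lung. In mThy14 these were 2 reads at each passage, and in mThy16 they were 61 and 122, a level near that of thyroid tissue. The lines differed by 21.5-fold at early and 65.5-fold at late passage, from those 2 reads. Both lungs lay above all other libraries. The log2 difference between TFCOs and lung was -4.44 (standard error 1.41) and missed the threshold (adjusted p = 0.0581), and it passed with a pseudocount of 5 (-3.86, adjusted p = 0.0485), with limma's voom (-4.70, adjusted p = 0.0437) and without late mThy16 (-4.73, adjusted p = 0.0397). Between TFCOs and thyroid tissue it was -2.60 (standard error 1.41, adjusted p = 0.356). Adipocytes, which make RBP4, were represented unevenly: 6 adipocyte markers summed to 2333 and 11288 normalized counts in thyroid, to 5036 and 662 in lung, and to between 23.9 and 67.1 in TFCOs. Their part in the RBP4 level was not tested. RBP4 lies on chromosome 19 from 38116629 to 38125281.

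Across all genes tested, 452 of 14703 (3.07%) were at least 4-fold higher in mThy16 than in mThy14 at both passages, and 163 (1.11%) at least 4-fold lower. RBP4 and STRA6 were among the first, 2 of the 8 genes, and 0 of the 8 among the second. Of the 23 other pathway genes tested, RDH10 was also in the first group. RDH10, the main retinol dehydrogenase that feeds the ALDH1A enzymes, stood at 1397 and 1507 in early and late mThy14, 7686 and 8787 in early and late mThy16, 872 and 622 in thyroid, and 704 and 362 in lung. It was 1 of 23, and other genes of its family ran in both directions. RDH16 ran the same way, with log2 differences of 1.96 early and 3.78 late, from 2 reads in mThy14 at each passage. RDH5, RDH11 and RDH12 had log2 differences of -2.69, -0.77 and -1.36 from mThy14 to mThy16 at early passage and of -1.20, -0.51 and -0.99 at late passage. ALDH1A1 and RARA differed between the lines by less than 1 on the log2 scale at both passages. Line and mouse cannot be told apart with 1 culture per mouse. FOXJ1, a gene of ciliated cells, moved with the lines as well, at 35.1 and 442 normalized counts in early and late mThy14 and 6122 and 6016 in early and late mThy16. DNAI2, another cilia gene, did not, at 15.5 and 33.3 in early and late mThy14 and 32.7 and 23.5 in mThy16. Whether mThy16 held such cells, and their part in the difference, was not tested. The follicular marker TG was lower in mThy16, at 12225 and 9532 against 126441 and 64646 in mThy14. The follicular markers PAX8, TSHR, NKX2-1, SLC5A5 and FOXE1 were also lower in mThy16 at both passages. TSHR stood at 1963 and 1882 against 7739 and 8582, and SLC5A5 at 45.6 and 24.6 against 292 and 29.1.

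**Figure D4:**
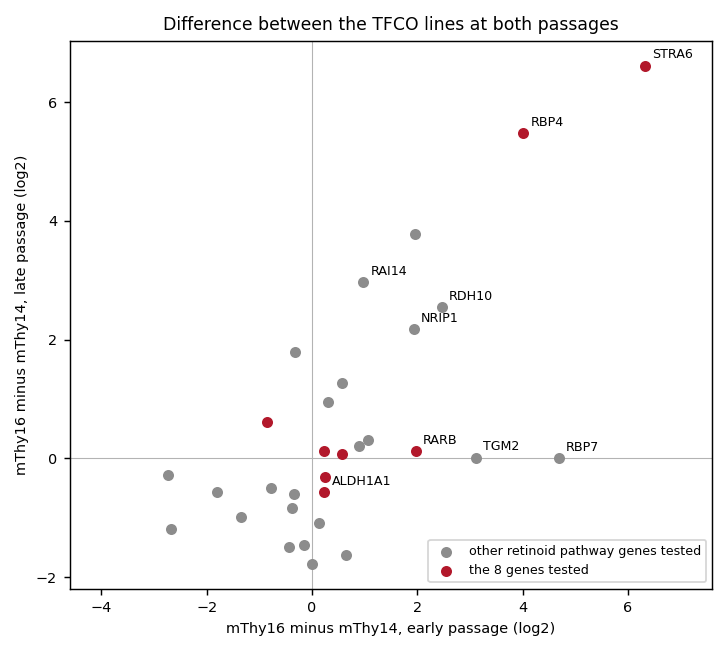
Log2 difference mThy16 minus mThy14 at early (x axis) and at late passage (y axis), 1 point per gene, for the 8 retinoic acid genes tested (red) and the other retinoid pathway genes tested (grey). STRA6 and RBP4 lie far up on the diagonal, at 6.32 and 4.01 early and 6.62 and 5.48 late, whereas the other 6 red points stay within 2 of zero on both axes. The RBP4 values rest on 2 reads in mThy14 at each passage.

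CRABP2 was detected in few reads. Its reads numbered 2 early and 6 late in mThy14, 2 early and 9 late in mThy16, 3 and 2 in thyroid, and 0 and 1 in lung. The highest value was 10.1 normalized counts, in late mThy16. At these depths 3 reads are 2.02 to 4.22 normalized counts, a level that late TFCOs exceeded and both lungs did not reach. With the filter dropped, CRABP2 entered the fit and was not called. Its log2 difference was then 0.66 between TFCOs and thyroid tissue (limma, standard error 0.74, adjusted p = 0.630) and 2.09 between TFCOs and lung (standard error 0.74, adjusted p = 0.0791). CRABP2 lies on chromosome 3 from 87948666 to 87953376.

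Of 2 other tested genes that bind retinoids, 0 were called between TFCOs and thyroid tissue, and 1 was called lower in each comparison with lung. FABP5, a fatty acid binding protein that can also carry retinoic acid, was called lower in thyroid tissue than in lung (-3.27, standard error 0.72, adjusted p = 0.0467), with 21.1% of its 50-base stretches shared with related sequences. RBP7, with 0 reads in 3 TFCO libraries and 25 in early mThy16, was called lower in TFCOs than in lung (-4.19, adjusted p = 0.0451). CRABP1 had 0 to 2 reads per TFCO library, and TTR 0 or 1.

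Of the 10 tested genes of retinol and retinaldehyde conversion and storage, 0 were called between TFCOs and thyroid tissue, and 2 higher and 3 lower between TFCOs and lung. Over all genes the shares were 0.599% higher and 3.05% lower against thyroid tissue, and 9.83% and 13.5% against lung. DHRS3, a reductase that returns retinaldehyde to retinol, stood at 5654 and 11042 in early and late mThy14, 4169 and 3925 in early and late mThy16, 1768 and 1504 in thyroid, and 1480 and 1330 in lung. All TFCO libraries exceeded all tissues. DHRS3 rose 4.03-fold against lung (log2 difference 2.01, standard error 0.42, adjusted p = 0.0201) and had a difference of 1.79 from thyroid tissue (adjusted p = 0.0702). RDH10 was 6.83-fold higher in TFCOs than in lung (adjusted p = 0.0449), with a difference of 2.23 from thyroid tissue (standard error 0.78, adjusted p = 0.196). LRAT, which stores retinol as ester, fell by 6.70 on the log2 scale from lung to TFCOs (standard error 1.04, adjusted p = 0.00842), with 1612 and 1742 normalized counts in the lungs, 32.7 and 307 in the thyroid tissues and 6.71 to 50.6 in TFCOs. ADH7 and DHRS9 were the other genes called lower.

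CYP26B1 was the tested degradation gene, at 25.3 and 8.33 in early and late mThy14, 2.97 and 6.71 in early and late mThy16, 28.3 and 92.2 in thyroid, and 359 and 333 in lung. It was 37.2-fold lower in TFCOs than in lung (log2 difference -5.22, standard error 0.91, adjusted p = 0.0123), and its difference from thyroid tissue was -2.49 (adjusted p = 0.210). CYP26C1 had 4 to 13 reads per TFCO library. Of the 3 retinoid X receptors, the partners of the receptors, RXRA was called lower in TFCOs than in lung (-1.35, standard error 0.35, adjusted p = 0.0377), and its difference from thyroid tissue was -1.29 (adjusted p = 0.109). RXRB and RXRG were not called in any comparison. Of all genes, 13.5% were called lower in TFCOs than in lung.

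A chosen list of genes known to be induced by retinoic acid held 7 that were tested. Genes placed in other groups above, such as RARB, were not in this list. Against thyroid tissue 0 of the 7 were called, with a median log2 difference of -0.97 beside 0.05 over all genes. Against lung 3 were called lower in TFCOs and 0 higher, namely TGM2, MEIS1 and RARRES2, beside 13.5% of all genes called lower and 9.83% called higher. TGM2, a transglutaminase, counted 57.6 early and 544 late in mThy14, 506 early and 549 late in mThy16, 458 and 791 in thyroid, and 6983 and 7313 in lung. It fell by 4.54 on the log2 scale from lung to TFCOs (standard error 0.56, adjusted p = 0.00375) and by 3.57 from lung to thyroid tissue (standard error 0.56, adjusted p = 0.0183). Of its 50-base stretches 18.8% overlap other genes. RAI14 and NRIP1 were not called in any comparison.

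ALDH1A1 and ALDH1A3 alone of the 8 tested genes were called in a comparison with lung. Between TFCOs and lung 1 of the 8 tested was called lower (ALDH1A1) and 0 higher, beside 13.5% of all genes called lower and 9.83% called higher. Between thyroid tissue and lung 1 was called higher (ALDH1A3) and 1 lower (ALDH1A1), beside 2.89% and 3.16% of all genes. With 8 genes, 1 call is a share of 12.5%, so these counts place no weight on the group as such. The median log2 difference of the 8 genes was 0.42 between TFCOs and thyroid tissue, -1.11 between TFCOs and lung and -1.24 between thyroid tissue and lung, beside 0.05, 0.05 and 0.03 over all genes.

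**Figure D5:**
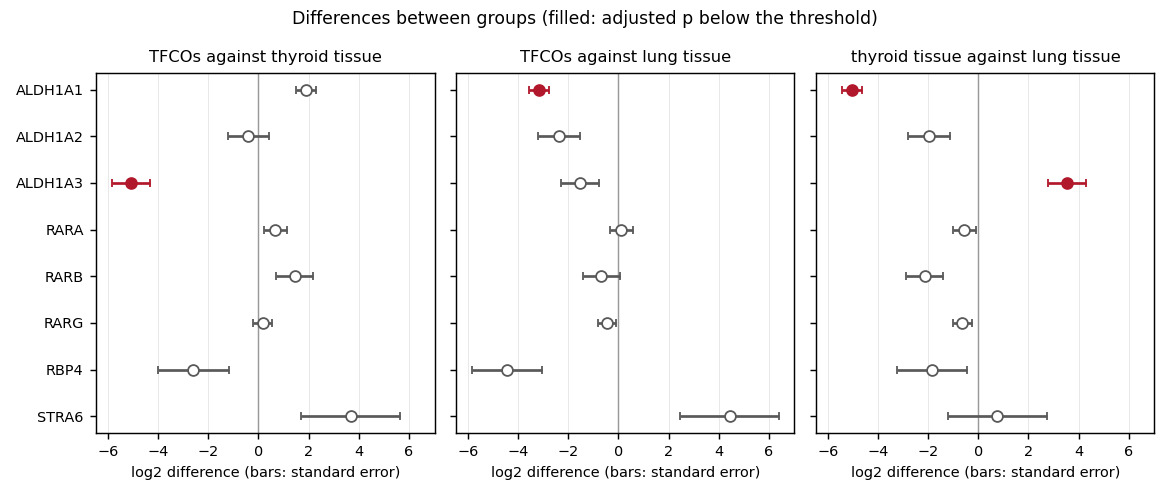
Log2 difference with its standard error (bars) of the 8 tested genes in 3 comparisons, 1 panel each, with filled red points for an adjusted p under 0.05. ALDH1A3 is filled in the comparisons of thyroid tissue with TFCOs (-5.08) and with lung (3.54), ALDH1A1 in both comparisons with lung (-3.16 and -5.05), and the bars of RBP4 and STRA6 are the widest.

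Passage gave no call. Between late and early TFCOs 0 of the 8 genes were called, with limma's adjusted p at 1 for each, beside 0% of all genes called. At an unadjusted p under 0.05 there were 166 genes in all. This fit did not pair the early and late library of a line, so differences between the lines entered its spread. The standard errors were 2.42 for STRA6 and 1.81 for RBP4. The lack of calls is therefore no evidence that levels were stable over passage. The log2 differences of the 8 genes ranged from -0.45 for ALDH1A2 to 0.89 for RARB, with a median of 0.20 beside -0.02 over all genes. The 0.89 of RARB rested on early mThy14, the low library of that gene, without which it was -0.093.

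The 3 genes whose levels most resembled each gene were found by Pearson's r over the 8 libraries, among 9354 genes with a range of at least 2 on the log2 scale, and are named for the 4 genes of widest range. For STRA6 they were ATG9B, SLC4A11 and MMP7 (r = 0.99 each), which were likewise high in mThy16 alone. ATG9B had 3373 and 3639 normalized counts in mThy16 and 10.1 to 50.6 elsewhere. For RBP4 they were RGL1, TRIL and PROS1 (r = 0.98 to 0.99), all low in mThy14. For ALDH1A3 they were CILP, CALCA and PAQR5 (r = 0.97 to 0.98), of which CALCA, the calcitonin gene of C cells, stood at 19984 and 36502 in the thyroid tissues and at most 17.6 in other libraries. For ALDH1A1 they were DNAI2, CYP2S1 and FPR1 (r = 0.98 to 0.99), all highest in lung. These are descriptions over 8 libraries that share groups and lines, with no test.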

How the data were processed

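The authors deposited 1 table of normalized counts (a signal per gene and library: reads divided by a size factor). The authors' methods give DESeq2 and a stranded mRNA kit, while the labels describe an adapted CEL-Seq protocol. The processing notes list BWA 0.6.2-r126, hg38 and mm10, with no role given. Values above 0 were whole multiples of 1 step per library (100% within 0.05), which gave reads and a floor of 3 reads for a count of 0.

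The test was limma (version 3.58.1, R 4.3.3) on log2(value + 1), its trend option on, adjusted by Benjamini-Hochberg over the 14703 genes that reached 10 in 2 or more libraries. Passages of a line were averaged for comparisons with tissue, which used 6 samples, and passage was tested on all 8 libraries. Fits were tested on simulated data. Count models were planned and not run, since the table was not entered as counts, and voom on recovered reads was added after seeing the data. Early and late libraries of a line are 1 mouse, and their deviations correlated at 0.48. With the line as a block, 0 genes were called between passages.

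Positions, lengths and shared 50-base stretches (either strand) came from GENCODE M21 (GRCm38), matched by symbol for 15883 of 16119 genes, and promoters from RefSeq. Pathway genes named were those called in a comparison with thyroid tissue, up to 3 others of highest mean per list, and the CYP26 genes. Others called against lung, and FOXJ1, TG, SFTPB and CALCA, were named after their values were seen. Of 33 listed pathway genes, 31 were in the table, and Stra6l and Adh1 are not analysed here. Some genes of the lists are not reported here and were left out of their counts. The genes, lists and tests were chosen with earlier results of these data known. Nothing says that tissues of a group came from separate mice, so p-values measure the spread between these samples, which may be technical. Intervals and floors cover counting error only.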

Additional observations from a re-analysis of the deposited data

How the results depend on the processing

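Of 512 values of single genes under alternatives, 478 kept their direction and side of the threshold, 8 lost and 10 gained a call, and 16 changed sign, none of them called. Quantile normalization moved the median of all genes to 0.17, 0.32 and 0.14 in the comparisons with tissue (TFCOs with thyroid, TFCOs with lung, thyroid with lung), and turned ALDH1A2 to 0.24 (TFCOs with thyroid tissue), RARB to 0.26 (TFCOs with lung) and STRA6 to 0.043 (late with early). The same total per library turned RARA to -0.0097 (TFCOs with lung).

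Counts of the 8 genes called were, between TFCOs and thyroid tissue, 2 with the same total per library and 2 with TFCO libraries as separate samples. Between TFCOs and lung they were 2 with a pseudocount of 5, 2 with separate samples and 2 with voom. Between thyroid tissue and lung it was 1 without the filter. Counts over all genes were 914 (TFCOs with thyroid tissue) and 5892 (TFCOs with lung) with separate samples, and 220 (TFCOs with thyroid tissue) with voom, beside 536 and 3435. The cause was not tested. The tissue numbers share only a number (correlation of deviations -0.07). With them as a replicate block, 167 genes and 1 of the 8 were called between thyroid tissue and lung, beside 889 and 2, with ALDH1A3 at an adjusted p of 0.121.

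Leaving out 1 library gave 153 to 4085 genes called between TFCOs and thyroid tissue, 248 to 6986 between TFCOs and lung, 58 to 4311 between thyroid tissue and lung and 0 to 2 between passages. The highest came without a thyroid tissue and the lowest without a lung, where a lone sample was assumed to vary like the others. Of the 8 genes, 0 to 2, 0 to 2, 1 to 3 and 0 were called. Single genes that changed sign ranged, between TFCOs and thyroid tissue, from -1.12 to 0.33 (ALDH1A2) and from -0.16 to 0.50 (RARG), between TFCOs and lung from -0.010 to 0.26 (RARA), between thyroid tissue and lung from -0.15 to 1.65 (STRA6), and between passages from -0.092 to 0.47 (ALDH1A1), -0.28 to 0.59 (ALDH1A3), -0.093 to 1.87 (RARB), -2.31 to 3.17 (RBP4) and -3.56 to 3.05 (STRA6). Planned count models were not fitted. Depth limits what can be seen of CRABP2, CYP26A1 and CYP26C1.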
